A study of Homo sapiens with 18 samples.

Results

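The oxygen-sensing machinery of the hypoxia response was examined in 10 genes of the 61806 in the count table, and all 10 passed the filter on low counts that left 19743 genes for testing. The genes were taken by their Ensembl identifiers. They are the HIF alpha subunits HIF1A, EPAS1 and HIF3A, the beta subunits ARNT and ARNT2, the ubiquitin ligase component VHL, the prolyl hydroxylases EGLN1, EGLN2 and EGLN3, and the asparaginyl hydroxylase HIF1AN. They were measured by poly(A) RNA-seq in HepG2, a human hepatoma cell line, and in APOA4-KO, a HepG2 line edited with CRISPR-Cas9 and 2 guide RNAs at APOA4, the gene of a lipoprotein component made by liver and intestine. Each line was sampled before hypoxia (0 h) and again once it had spent 24 h or 48 h at 1% oxygen. There were 3 libraries in each of the 6 groups and 18 in all. APOA4-KO was raised from single colonies in which both alleles were mutated and is compared with its parental line as a single line, so the edit and any other difference between the lines cannot be told apart. No cells were kept at normal oxygen for 24 h or 48 h, so hypoxia and time in culture cannot be told apart either. The labels do not say that the libraries of a group came from separate cultures, and the p-values then measure only the spread between these libraries, which may be technical.

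HIF is a dimer of an alpha and a beta subunit that binds DNA and switches on genes of glycolysis, vessel growth and red cell formation. In cells with oxygen, the EGLN enzymes hydroxylate prolines of the alpha subunit, VHL recognises the hydroxylated protein, and the ubiquitin ligase built around VHL sends it to the proteasome. HIF1AN hydroxylates an asparagine that alpha subunits use to contact the coactivators CREBBP and EP300. Both hydroxylations use molecular oxygen. They act on protein, which mRNA counts do not measure. In the liver, the protein of EPAS1 is known for its control of erythropoietin and of lipid handling.

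The libraries held between 76481820 and 91604947 counts. APOA4 itself was still counted in every library of the edited line. It lay between 8.46 and 9.67 CPM in HepG2 and between 6.99 and 8.35 CPM in APOA4-KO at 0 h, and between 18.9 and 21.7 CPM in HepG2 and between 7.65 and 8.54 CPM in APOA4-KO at 48 h. CPM is a count scaled to the library size, here with sizes adjusted by TMM, and FPKM values are those of the authors' table, which divides by gene length. The defining hepatocyte markers were present in every library, with ALB, the gene of albumin, between 4021 and 5713 FPKM. Their levels differed between the lines. At 0 h, 7 of 9 were higher and 2 lower in APOA4-KO (13% and 17.7% of all tested genes, adjusted p under 0.05). The mean of AFP was 130 CPM in HepG2 and 956 CPM in APOA4-KO, and that of APOA1 was 6577 and 5758 CPM. The part of this difference in the results was not tested. The leukocyte markers PTPRC and CD3E reached at most 0.49 and 0.12 FPKM, and CD68, a lysosomal gene, lay between 12.9 and 30.7 FPKM. The summed leukocyte markers lay between 13.2 and 14.3 FPKM in APOA4-KO at 0 h and between 28.0 and 30.9 FPKM at 48 h, nearly all of it CD68, and their part in the results was not tested. The summed endothelial markers lay between 0.92 and 1.93 FPKM and the summed fibroblast markers between 0.09 and 0.64 FPKM. APOA4-KO 24 h replicate 1 stood apart on the first 2 principal components, at a distance of 31.2 from the centre of its group, where the other 17 libraries lay between 1.28 and 17.1.

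The core DNA sequence that HIF dimers recognise is ACGTG or GCGTG, and the promoters of the prolyl hydroxylases, the enzymes that mark the alpha subunits, and of HIF3A, which rose in APOA4-KO at 48 h, are shown with those letters in capitals. Each runs 5′ to 3′ along the gene from 250 bases before to 50 bases after a RefSeq start (GRCh38.p14). Where a gene has several starts, the first in genome order is shown. RefSeq promoters were matched for 8 of the 10 genes, and not for VHL and ARNT2. Those of ARNT, EPAS1, HIF1A and HIF1AN are not shown.
EGLN1, chr1:231422238-231422537, minus strand: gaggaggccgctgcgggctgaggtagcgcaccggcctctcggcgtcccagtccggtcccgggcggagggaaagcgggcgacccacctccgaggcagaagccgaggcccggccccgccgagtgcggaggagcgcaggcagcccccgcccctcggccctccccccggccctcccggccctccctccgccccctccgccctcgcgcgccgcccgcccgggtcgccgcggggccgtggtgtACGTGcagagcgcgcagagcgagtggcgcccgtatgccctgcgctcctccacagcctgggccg
EGLN3, chr14:33951025-33951324, minus strand: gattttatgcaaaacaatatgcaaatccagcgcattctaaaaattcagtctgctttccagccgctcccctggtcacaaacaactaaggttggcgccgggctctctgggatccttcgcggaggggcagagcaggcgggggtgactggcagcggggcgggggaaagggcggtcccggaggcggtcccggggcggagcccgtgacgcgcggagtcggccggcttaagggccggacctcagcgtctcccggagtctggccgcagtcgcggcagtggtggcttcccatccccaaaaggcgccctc
EGLN2, chr19:40798941-40799240, plus strand: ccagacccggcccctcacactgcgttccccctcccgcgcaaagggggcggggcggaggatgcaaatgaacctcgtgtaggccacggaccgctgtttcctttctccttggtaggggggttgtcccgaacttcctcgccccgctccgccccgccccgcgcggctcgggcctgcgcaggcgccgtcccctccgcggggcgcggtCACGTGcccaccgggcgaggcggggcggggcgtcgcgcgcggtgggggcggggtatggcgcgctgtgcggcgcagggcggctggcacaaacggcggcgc
HIF3A, chr19:46296792-46297091, plus strand: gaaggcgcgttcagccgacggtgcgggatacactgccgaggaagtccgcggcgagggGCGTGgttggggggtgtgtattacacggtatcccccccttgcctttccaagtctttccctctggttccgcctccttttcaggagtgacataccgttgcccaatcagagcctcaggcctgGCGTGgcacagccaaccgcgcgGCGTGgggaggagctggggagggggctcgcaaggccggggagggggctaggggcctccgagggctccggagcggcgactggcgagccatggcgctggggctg
The EGLN1 window holds 1 ACGTG, whose first base lies 13 bases before the start. The EGLN3 window holds neither sequence on either strand. In the EGLN2 window, the palindrome CACGTG gives 1 ACGTG on each strand, and these 2 matches overlap. The HIF3A window holds 3 GCGTG. The windows at the later starts of EGLN2 and HIF3A, not shown, hold neither sequence. Of the genes not shown, EPAS1 and the first start of HIF1A have 1 GCGTG each. ARNT, HIF1AN and the later start of HIF1A have neither sequence. Of 35116 RefSeq promoters of this length, 21.4% hold ACGTG on either strand and 36.5% hold GCGTG, so a match is common and is given as a description.

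Per length, EPAS1 had the highest level of the 10 genes in all 6 groups, between 37.6 and 93.5 FPKM. HIF1A followed at 15.4 to 27.8 FPKM. The partner ARNT was present at 4.74 to 7.51 FPKM, and its paralog ARNT2 at 0.10 to 0.46 FPKM. HIF3A, whose protein forms include inhibitors of the other alpha subunits, was near the lower limit at 0.01 to 0.17 FPKM. The prolyl hydroxylases lay at 6.90 to 20.9 FPKM for EGLN1, 3.09 to 7.44 FPKM for EGLN2 and 1.30 to 18.7 FPKM for EGLN3. VHL lay at 7.63 to 12.8 FPKM and HIF1AN at 5.09 to 6.97 FPKM.

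EPAS1 (ENSG00000116016), the alpha subunit also called HIF-2 alpha, rose with time in both lines and rose further in APOA4-KO. In HepG2 it was at 386, 388 and 385 CPM at 0 h, at 437, 420 and 424 CPM at 24 h, and at 489, 480 and 491 CPM at 48 h. In APOA4-KO the values were 277, 271 and 268 CPM at 0 h, 555, 556 and 558 CPM at 24 h, and 732, 751 and 747 CPM at 48 h. No library of any group overlapped with another group, and APOA4-KO moved from the lowest of the 6 groups at 0 h to the highest at 48 h. The change in HepG2 was a log2 fold change of 0.14 ± 0.02 (SE) at 24 h (adjusted p = 2.11e-06) and 0.33 ± 0.02 after 48 h (adjusted p = 1.03e-12). In APOA4-KO it was 1.03 ± 0.02 at 24 h (adjusted p = 3.72e-23) and 1.45 ± 0.02 after 48 h (adjusted p = 1.49e-26), a 2.73-fold level. The difference between the lines therefore changed sign, from -0.51 ± 0.02 at 0 h (adjusted p = 1.76e-16) to 0.61 ± 0.02 at 48 h (adjusted p = 5.71e-19). Tested directly, the change from 0 h was larger in APOA4-KO by 0.89 ± 0.03 at 24 h (adjusted p = 5.68e-18) and by 1.12 ± 0.03 after 48 h (adjusted p = 2.00e-20).

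HIF1A (ENSG00000100644), the alpha subunit best known for control of glycolytic genes, moved in opposite directions in the lines at 24 h. In HepG2 it was at 105, 105 and 104 CPM at 0 h, at 86.2, 83.6 and 87.1 CPM at 24 h, and at 112, 105 and 115 CPM at 48 h. In APOA4-KO it was at 82.5, 82.5 and 93.8 CPM at 0 h, at 142, 143 and 138 CPM at 24 h, and at 124, 128 and 128 CPM at 48 h. All APOA4-KO libraries in hypoxia lay above all HepG2 libraries, whereas at 0 h all lay below the HepG2 libraries of 0 h and overlapped with those of 24 h. HepG2 fell by 0.29 ± 0.04 on the log2 scale at 24 h (adjusted p = 3.42e-06) and then regained its level, with 0.08 ± 0.04 at 48 h against 0 h (adjusted p = 0.150). That 48 h change passed without HepG2 48 h replicate 2 (0.14, adjusted p = 0.0278) or APOA4-KO 0 h replicate 3 (0.10, adjusted p = 0.0263). It also passed in a fit of only the groups compared (0.11, adjusted p = 0.0152). APOA4-KO rose by 0.71 ± 0.04 at 24 h (adjusted p = 1.12e-13), and at 48 h it was 0.55 ± 0.04 above 0 h (adjusted p = 1.33e-11) but 0.16 ± 0.04 under 24 h (log2 fold change -0.16, adjusted p = 0.00212). The direct test of the difference gave 1.00 ± 0.06 at 24 h (adjusted p = 9.81e-13) and 0.47 ± 0.06 after 48 h (adjusted p = 2.60e-07). At 48 h, APOA4-KO exceeded HepG2 by 0.19 ± 0.04 (adjusted p = 0.000252), a call that was lost with scaling to library size alone (0.04, adjusted p = 0.430, where the median of all tested genes was -0.19) and on FPKM with limma. A share of 5.14% of the annotated exon bases of HIF1A overlaps other genes, among them the antisense HIF1A-AS1.

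HIF3A (ENSG00000124440) was found at very low counts in 5 groups and rose in APOA4-KO at 48 h. The HepG2 libraries held 9, 8 and 14 counts of it before hypoxia, 13, 29 and 17 after 24 h, and 8, 8 and 13 after 48 h. The APOA4-KO libraries held 18, 18 and 39 counts before hypoxia, 30, 9 and 39 after 24 h, and 92, 122 and 112 after 48 h. The 3 libraries of APOA4-KO at 48 h stood above the other 15, and the other groups of this line overlapped with one another. The change of APOA4-KO from 0 h to 48 h was 2.34 ± 0.53 (adjusted p = 0.000605), and at 48 h it exceeded HepG2 by 3.76 ± 0.58 (adjusted p = 3.79e-06). This 48 h change was larger than that of HepG2 by 2.54 ± 0.77 (adjusted p = 0.0108). Genes with 4, 8 or 12 counts outnumbered those with adjacent values in every one of the 18 libraries, so a count this small need not stand for one read pair each. The study's methods and the submitters' processing notes name different tools for this step, and the values of the count table may be estimates rather than counted read pairs. At 0 h the difference between the lines did not pass (1.23 ± 0.55, adjusted p = 0.0974).

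**Figure D1:**
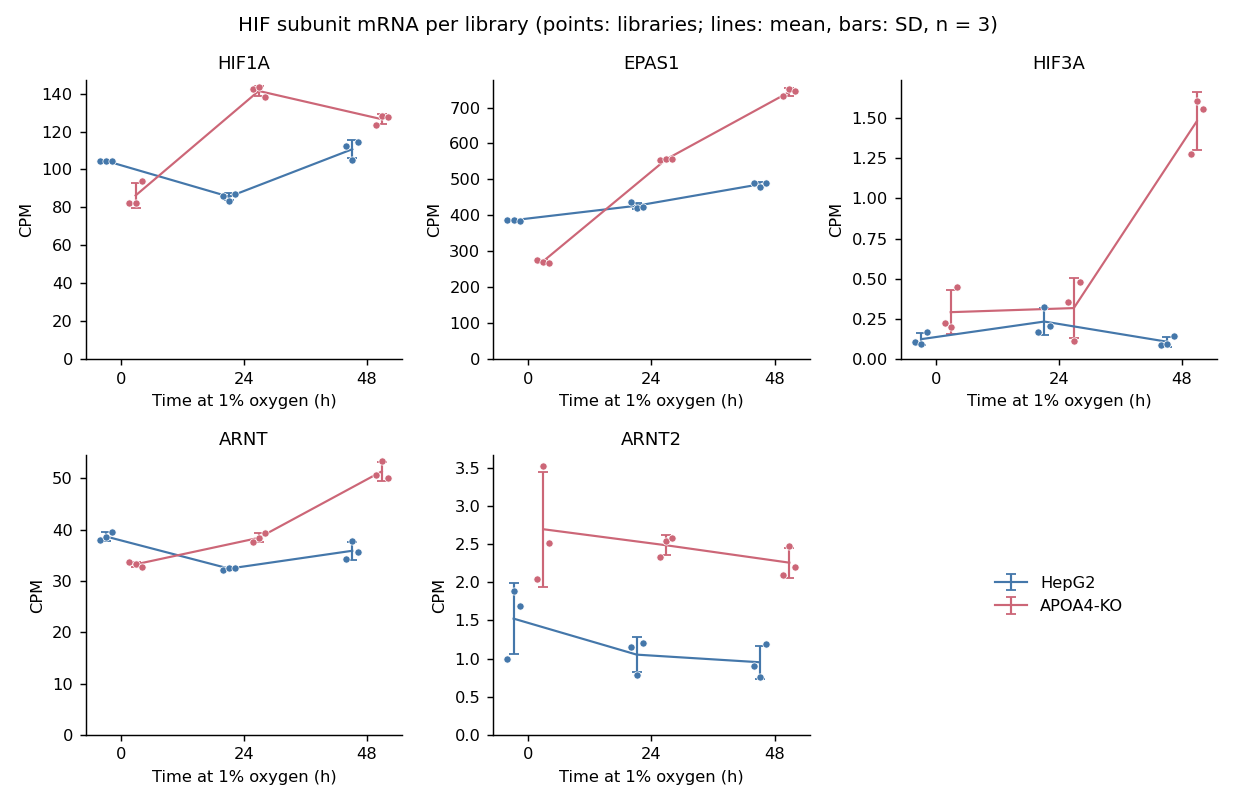
CPM of the 5 HIF subunit genes (vertical axes, each from 0) at 0, 24 and 48 h at 1% oxygen in HepG2 (blue) and APOA4-KO (red); points are libraries, lines join group means and bars are SD of 3 libraries. EPAS1, HIF1A and ARNT started lower in APOA4-KO and ended higher, HIF3A reached 1.28 to 1.61 CPM only in APOA4-KO at 48 h, and ARNT2 was higher in APOA4-KO at all 3 times.

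ARNT (ENSG00000143437), the beta subunit shared by the HIF alpha subunits and the aryl hydrocarbon receptor, fell at first in HepG2 and rose in APOA4-KO. Its values in HepG2 were 37.9, 38.5 and 39.5 CPM at 0 h, 32.2, 32.6 and 32.5 CPM at 24 h, and 34.3, 37.8 and 35.6 CPM at 48 h. Those in APOA4-KO were 33.7, 33.3 and 32.7 CPM at 0 h, 37.5, 38.3 and 39.3 CPM at 24 h, and 50.6, 53.4 and 50.1 CPM at 48 h. The APOA4-KO libraries at 48 h lay above all others, and APOA4-KO at 24 h overlapped with HepG2 at 0 h and 48 h. HepG2 fell by 0.25 ± 0.04 on the log2 scale at 24 h (adjusted p = 6.66e-05), and the value at 48 h was -0.11 ± 0.04 against 0 h (adjusted p = 0.0787). APOA4-KO rose by 0.21 ± 0.04 at 24 h (adjusted p = 0.000360) and by 0.63 ± 0.04 after 48 h (adjusted p = 6.63e-12). Tested directly, these changes differed between the lines by 0.46 ± 0.06 at 24 h (adjusted p = 1.97e-06) and 0.74 ± 0.06 after 48 h (adjusted p = 5.83e-10). The rise of HepG2 from 24 h to 48 h (0.15 ± 0.04, adjusted p = 0.0133) was lost without HepG2 48 h replicate 2 (0.12, adjusted p = 0.0644) and with DESeq2 (0.11, adjusted p = 0.0713).

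ARNT2 (ENSG00000172379), a beta subunit best known from neurons, was scarce and higher in APOA4-KO than in HepG2. In HepG2 it was at 0.996, 1.89 and 1.69 CPM at 0 h, 1.16, 0.788 and 1.21 CPM at 24 h, and 0.904, 0.760 and 1.19 CPM at 48 h. In APOA4-KO it was at 2.04, 3.52 and 2.52 CPM at 0 h, 2.34, 2.54 and 2.58 CPM at 24 h, and 2.1, 2.48 and 2.2 CPM at 48 h. Every APOA4-KO library exceeded every HepG2 library, while the 3 times overlapped within each line. The lines differed by 1.24 ± 0.26 at 24 h (adjusted p = 0.000239) and by 1.24 ± 0.26 after 48 h (adjusted p = 0.000234). At 0 h the difference was 0.82 ± 0.26 (adjusted p = 0.0150), and the call was lost without APOA4-KO 0 h replicate 2 (0.58, adjusted p = 0.135) or without HepG2 0 h replicate 1 (0.60, adjusted p = 0.110). The change from 0 h did not pass at either time in either line. In HepG2 it did without HepG2 0 h replicate 1 (-0.76, adjusted p = 0.0346 at 24 h, and -0.89, adjusted p = 0.0142 at 48 h), and at 48 h without HepG2 48 h replicate 3 (-0.85, adjusted p = 0.0360).

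EGLN3 (ENSG00000129521), a prolyl hydroxylase and itself a known HIF target, rose in both lines and had the largest changes from 0 h among the 10 genes at 24 h and 48 h in each line. It lay at 11.2, 9.59 and 9.99 CPM in HepG2 at 0 h, at 38.0, 37.9 and 38.0 CPM at 24 h, and at 46.9, 46.0 and 45.0 CPM at 48 h. It lay at 13.3, 11.9 and 12.7 CPM in APOA4-KO at 0 h, at 68.1, 70.0 and 67.0 CPM at 24 h, and at 150, 149 and 149 CPM at 48 h. The 6 groups did not overlap, and both lines were higher at 48 h than at 24 h. The rise in HepG2 was 1.89 ± 0.05 at 24 h (adjusted p = 3.48e-20) and 2.16 ± 0.05 after 48 h (adjusted p = 2.99e-21), and in APOA4-KO it was 2.44 ± 0.05 (adjusted p = 1.02e-22) and 3.57 ± 0.05 (adjusted p = 4.06e-26), which are 4.48-fold and 11.9-fold levels at 48 h. From 24 h to 48 h, HepG2 rose by 0.28 ± 0.05 (adjusted p = 3.97e-05) and APOA4-KO by 1.13 ± 0.05 (adjusted p = 3.03e-16). The lines already differed by 0.30 ± 0.05 at 0 h (adjusted p = 3.71e-05), and their changes differed by 0.55 ± 0.07 at 24 h (adjusted p = 4.51e-07) and 1.40 ± 0.07 after 48 h (adjusted p = 9.75e-15).

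EGLN1 (ENSG00000135766), the main prolyl hydroxylase of most tissues with oxygen, rose to a like level in both lines but at different times. HepG2 had 41.6, 40.0 and 37.7 CPM at 0 h, 39.1, 39.3 and 39.2 CPM at 24 h, and 106, 101 and 107 CPM at 48 h. APOA4-KO had 37.3, 42.6 and 41.7 CPM at 0 h, 103, 112 and 106 CPM at 24 h, and 96.9, 90.8 and 89.5 CPM at 48 h. The 9 libraries of HepG2 at 0 h and 24 h and of APOA4-KO at 0 h lay between 37.3 and 42.6 CPM and overlapped, and the other 9 lay between 89.5 and 112 CPM. At 24 h the change was -0.02 ± 0.05 in HepG2 (adjusted p = 0.846) and 1.40 ± 0.05 in APOA4-KO (adjusted p = 6.29e-18), a difference of 1.42 ± 0.07 (adjusted p = 3.38e-14). At 48 h the change was 1.39 ± 0.05 in HepG2 (adjusted p = 1.91e-17) and 1.19 ± 0.05 in APOA4-KO (adjusted p = 8.98e-17). Its level in APOA4-KO then differed from HepG2 by -0.18 ± 0.05 on the log2 scale (adjusted p = 0.00287) and was lower than its own 24 h level by -0.21 ± 0.05 (adjusted p = 0.000629). The difference in the 48 h change (-0.21 ± 0.07, adjusted p = 0.0193) was lost without APOA4-KO 0 h replicate 2 (-0.17, adjusted p = 0.0769), APOA4-KO 0 h replicate 3 (-0.18, adjusted p = 0.0586), APOA4-KO 48 h replicate 3 (-0.18, adjusted p = 0.0571), HepG2 0 h replicate 3 (-0.17, adjusted p = 0.0758) or HepG2 48 h replicate 3 (-0.19, adjusted p = 0.0531). This pair of genes is thus unlike in HepG2 at 24 h, where EGLN3 had risen 3.70-fold and all EGLN1 libraries lay within the range of 0 h.

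**Figure D2:**
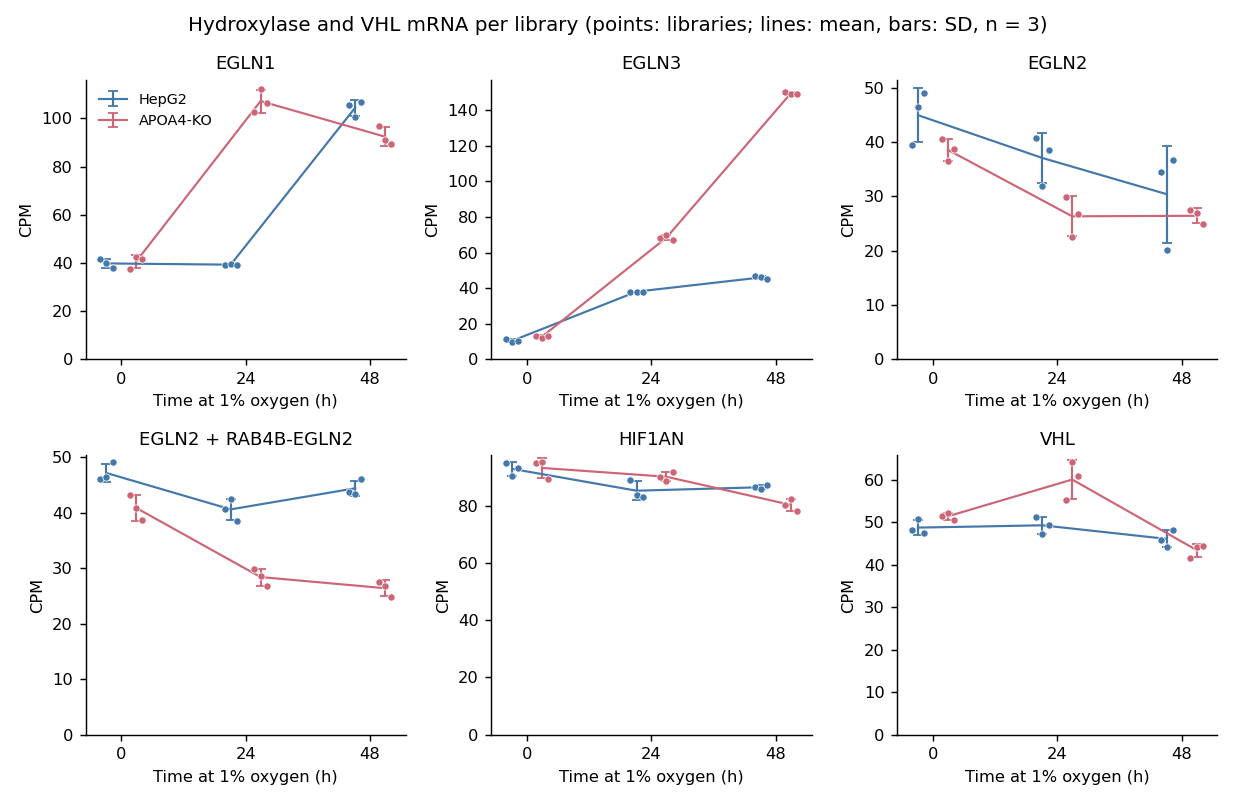
CPM of the prolyl hydroxylases, of EGLN2 summed with its read-through gene, of HIF1AN and of VHL (vertical axes, each from 0) at 0, 24 and 48 h at 1% oxygen in HepG2 (blue) and APOA4-KO (red); points are libraries, lines join group means and bars are SD of 3 libraries. EGLN1 reached 103 to 112 CPM at 24 h in APOA4-KO and 101 to 107 CPM only at 48 h in HepG2, and EGLN3 reached 149 to 150 CPM in APOA4-KO at 48 h.

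EGLN2 (ENSG00000269858), the prolyl hydroxylase that hypoxia is not known to induce, is the only one of the 10 genes with a large exon overlap. Of its 6577 annotated exon bases, 30.6% are shared on the same strand with other genes, and all 2012 shared bases belong to RAB4B-EGLN2, a read-through transcript from the neighbouring RAB4B. The HepG2 libraries held 3320, 3834 and 4077 counts of EGLN2 before hypoxia, 3139, 2829 and 3189 after 24 h, and 3236, 1696 and 3323 after 48 h, and those of RAB4B-EGLN2 were 562, 0 and 0, then 0, 948 and 0, then 884, 1966 and 849. In APOA4-KO, EGLN2 had 3213, 3286 and 3358 counts before hypoxia, 2515, 1746 and 2165 after 24 h, and 1984, 2038 and 1785 after 48 h, beside 213, 383 and 0, then 0, 486 and 7, then 0, 0 and 0 counts of the read-through gene. Within a group, the library with the fewest EGLN2 counts had the most read-through counts in HepG2 at 0 h, 24 h and 48 h and in APOA4-KO at 24 h, and in HepG2 48 h replicate 2 the read-through gene took 53.7% of the sum. Summed over both genes, the level was 46.0, 46.4 and 49.1 CPM in HepG2 at 0 h, 40.8, 42.5 and 38.6 CPM at 24 h, and 43.8, 43.5 and 46.0 CPM at 48 h. In APOA4-KO the sum was 43.2, 40.8 and 38.6 CPM at 0 h, 29.8, 28.7 and 26.8 CPM at 24 h, and 27.5, 26.9 and 24.8 CPM at 48 h. The sum thus separated APOA4-KO in hypoxia from all other libraries, which the counts of EGLN2 alone did not.

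With EGLN2 alone, the fall in APOA4-KO was -0.55 ± 0.19 at 24 h (adjusted p = 0.0301) and -0.55 ± 0.19 after 48 h (adjusted p = 0.0288), and with the sum it was -0.52 ± 0.06 (adjusted p = 1.03e-08) and -0.63 ± 0.06 (adjusted p = 3.52e-10). In HepG2 at 48 h, EGLN2 alone gave -0.56 ± 0.19 (adjusted p = 0.0402) and the sum -0.09 ± 0.05 (adjusted p = 0.283), so the call held for EGLN2 alone and not for the sum. At 24 h, HepG2 was at -0.28 ± 0.19 (adjusted p = 0.333) alone and at -0.22 ± 0.05 (adjusted p = 0.00310) in the sum. The lines differed in the sum by -0.21 ± 0.05 at 0 h (adjusted p = 0.00459), by -0.52 ± 0.06 at 24 h (adjusted p = 1.26e-08) and by -0.75 ± 0.06 after 48 h (adjusted p = 1.16e-11). The changes of the lines differed by -0.31 ± 0.08 at 24 h (adjusted p = 0.00264) and -0.54 ± 0.08 after 48 h (adjusted p = 2.76e-06) in the sum, whereas for EGLN2 alone the values were -0.27 ± 0.27 (adjusted p = 0.534) and 0.02 ± 0.27 (adjusted p = 0.980). The difference between the lines for EGLN2 alone at 24 h (-0.49 ± 0.19, adjusted p = 0.0470) was lost in 18 of 28 alternatives, 14 of which left out a library, and was -0.39 (adjusted p = 0.169) without APOA4-KO 24 h replicate 2. Its call in HepG2 at 48 h was lost in 15 of 28, with -0.32 (adjusted p = 0.0773) without HepG2 48 h replicate 2, and without that library the lines differed at 48 h (-0.43, adjusted p = 0.00883). The calls in APOA4-KO were lost without any one of its 0 h libraries, at 24 h also without APOA4-KO 24 h replicate 2 or 3, and at 48 h also without any one of its 48 h libraries, with values from -0.57 to -0.45.

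**Figure D3:**
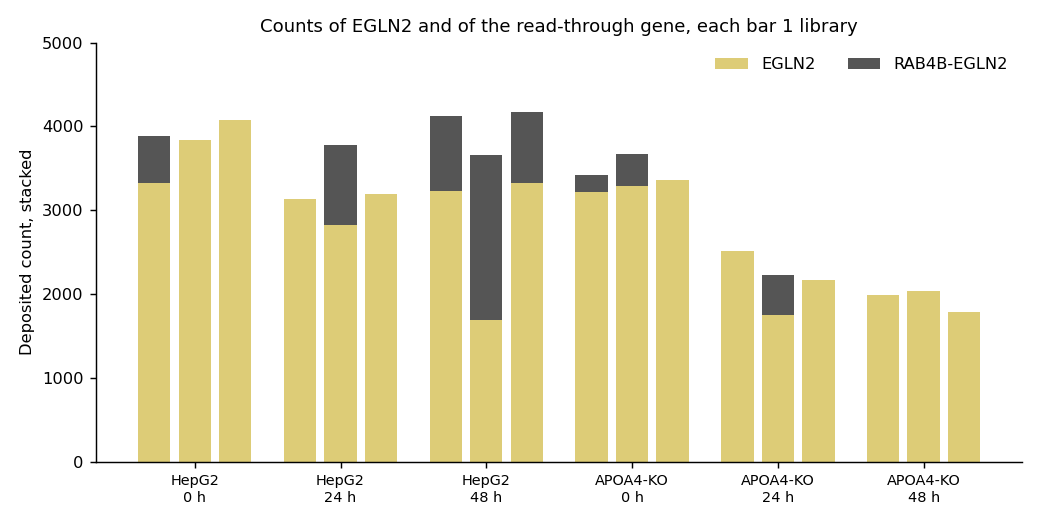
Deposited counts of EGLN2 (yellow) and of the read-through gene RAB4B-EGLN2 (grey), stacked on a vertical axis from 0, with 1 bar for each of the 18 libraries in their 6 groups. The read-through share changes from library to library within a group, from 0 to 53.7%, while the height of the stack varies less.

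HIF1AN (ENSG00000166135), the asparaginyl hydroxylase also called FIH, varied less than the other genes. In HepG2 it was at 95.0, 90.3 and 93.1 CPM at 0 h, 88.9, 83.7 and 83.0 CPM at 24 h, and 86.3, 85.8 and 87.0 CPM at 48 h. In APOA4-KO it was at 94.9, 95.3 and 89.2 CPM at 0 h, 89.9, 88.6 and 91.6 CPM at 24 h, and 80.3, 82.3 and 78.1 CPM at 48 h. The APOA4-KO libraries at 48 h lay below all others, and both lines overlapped at 0 h and at 24 h. APOA4-KO fell by 0.22 ± 0.04 on the log2 scale from 0 h to 48 h (adjusted p = 1.30e-05). The calls in HepG2, -0.12 ± 0.04 at 24 h (adjusted p = 0.00885) and -0.10 ± 0.04 after 48 h (adjusted p = 0.0312), and the difference between the lines at 48 h (-0.11 ± 0.04, adjusted p = 0.0144) were each lost under some alternatives. The 48 h call in HepG2 was lost in 17 of 28, among them without any one of the HepG2 libraries at 0 h or 48 h. Without HepG2 0 h replicate 1 the HepG2 values were -0.10 (adjusted p = 0.0781) and -0.06 (adjusted p = 0.305), and without APOA4-KO 48 h replicate 3 the difference between the lines was -0.09 (adjusted p = 0.0709). At 24 h the lines differed by 0.08 ± 0.04 (adjusted p = 0.0678), which passed in 15 of 28 alternatives. Those that left out a library were without any one of the 0 h libraries of either line, any one of the HepG2 48 h libraries, HepG2 24 h replicate 1 or APOA4-KO 48 h replicate 1, with values from 0.09 to 0.11. The difference in the change from 0 h did not pass at 24 h (0.08 ± 0.05, adjusted p = 0.306) or at 48 h (-0.11 ± 0.05, adjusted p = 0.0902).

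VHL (ENSG00000134086), the substrate-recognition subunit of the ligase, changed in APOA4-KO and did not pass in HepG2. It was at 48.1, 50.7 and 47.5 CPM in HepG2 at 0 h, 51.3, 47.2 and 49.4 CPM at 24 h, and 45.7, 44.3 and 48.2 CPM at 48 h. It was at 51.4, 52.2 and 50.6 CPM in APOA4-KO at 0 h, 55.2, 64.1 and 60.8 CPM at 24 h, and 41.7, 44.3 and 44.4 CPM at 48 h. The highest 3 libraries were those of APOA4-KO at 24 h, and APOA4-KO at 48 h overlapped with HepG2 at 48 h. APOA4-KO rose by 0.22 ± 0.05 at 24 h (adjusted p = 0.000562) and was at -0.24 ± 0.05 at 48 h (adjusted p = 0.000244), after a fall of -0.47 ± 0.05 from 24 h to 48 h (adjusted p = 2.77e-08). The HepG2 values were 0.02 ± 0.05 at 24 h (adjusted p = 0.883) and -0.08 ± 0.05 after 48 h (adjusted p = 0.281). At 24 h, APOA4-KO exceeded HepG2 by 0.29 ± 0.05 (adjusted p = 3.06e-05). The difference in the 24 h change, 0.21 ± 0.07 (adjusted p = 0.0258), was lost without APOA4-KO 24 h replicate 2 (0.16, adjusted p = 0.0979), HepG2 24 h replicate 2 (0.18, adjusted p = 0.0800) or HepG2 0 h replicate 2 (0.20, adjusted p = 0.0504), and with DESeq2 (0.17, adjusted p = 0.0875). The difference in the 48 h change did not pass (-0.16 ± 0.07, adjusted p = 0.0846).

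**Figure D4:**
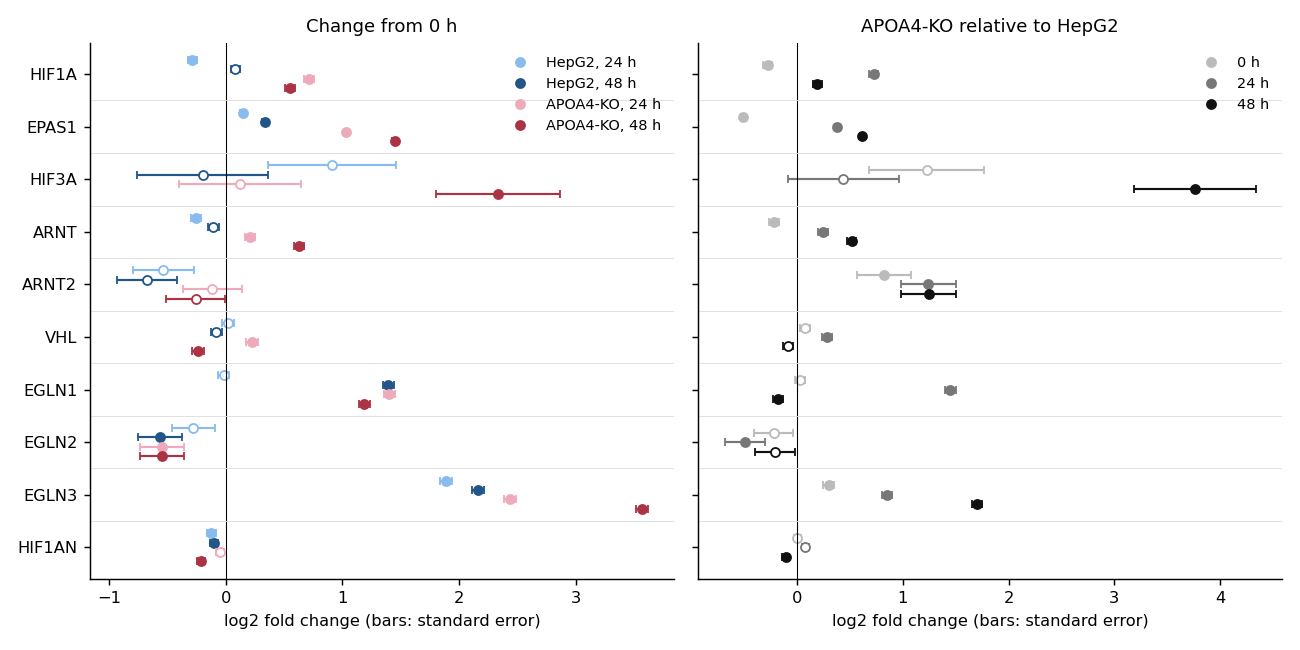
Log2 fold changes from the edgeR fit for the 10 genes, with standard errors derived from its F statistic. The left panel holds changes from 0 h to 24 h and 48 h in each line. The right panel holds differences between the lines at each time. Filled points passed an adjusted p under 0.05 and open points did not. EGLN3 in APOA4-KO at 48 h lies at 3.57, EGLN1 at 24 h lies at -0.02 in HepG2 and 1.40 in APOA4-KO, and the wide bars of HIF3A and ARNT2 belong to low counts.

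Counted over the 10 genes at an adjusted p under 0.05, the 24 h change in HepG2 was higher for 2 and lower for 3, where 11.5% of all tested genes were higher and 18.4% lower. Its 48 h change was higher for 3 and lower for 2, beside 13.2% and 14.8% of all tested genes. These 5 became 3 without APOA4-KO 0 h replicate 1 or 2, APOA4-KO 24 h replicate 1 or 3, APOA4-KO 48 h replicate 1, or HepG2 0 h replicate 2 or 3, each left out alone. In APOA4-KO, 6 were higher and 1 lower at 24 h, beside 21.6% and 22.8% of all tested genes. At 48 h, 6 were higher and 3 lower, beside 24% and 25.8%, and the gene that did not pass was ARNT2. From 24 h to 48 h, 5 were higher and none lower in HepG2 (18.9% and 12% of all tested genes), and 4 were higher and 4 lower in APOA4-KO (21.9% and 19.6%). Between the lines, 2 were higher and 3 lower in APOA4-KO at 0 h (13% and 17.7%), 7 higher and 1 lower at 24 h (23.6% and 24.5%), and 6 higher and 2 lower at 48 h (23.5% and 27.2%). The 24 h change of APOA4-KO exceeded that of HepG2 for 6 genes and fell short of it for none (17% and 15.6%), and the 48 h change exceeded it for 5 and fell short for EGLN1 (18.7% and 17.9%). The median log2 fold change of the 10 genes in APOA4-KO from 0 h to 48 h was 0.59, beside -0.07 over all tested genes, and in HepG2 it was -0.09 beside -0.03. Comparisons with the same 0 h libraries share them and are not independent of each other.

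With a log2 fold change of at least 1 in either direction required as well, the same counts were smaller. EGLN3 passed in HepG2 at 24 h, where 2.96% of all tested genes did, EGLN1 and EGLN3 at 48 h (2.13%), and EGLN1 from 24 h to 48 h (2.01%). In APOA4-KO, EPAS1, EGLN1 and EGLN3 passed at 24 h (5.7%), these and HIF3A at 48 h (12%), and HIF3A and EGLN3 from 24 h to 48 h (5.51%). Between the lines, none passed at 0 h (4.26%; 1 did without HepG2 0 h replicate 2), ARNT2 and EGLN1 passed at 24 h (7.6%), and HIF3A, ARNT2 and EGLN3 at 48 h (13.3%). For the difference in the changes, HIF1A and EGLN1 passed at 24 h (2.56%) and EPAS1, HIF3A and EGLN3 at 48 h (7.23%). The count of 2 at 24 h became 1 without APOA4-KO 0 h replicate 1 or 2, APOA4-KO 24 h replicate 2 or HepG2 24 h replicate 2. No member that passed the test was lower by a log2 fold change of 1 or more. HIF3A from 24 h to 48 h in HepG2 had -1.11 (adjusted p = 0.144).

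The makeup of the sensor mRNAs shifted with these changes. The summed FPKM of EGLN1, EGLN2 and EGLN3 was 15.6 ± 0.33 (SD, n = 3) in HepG2 before hypoxia, 17.2 ± 0.68 after 24 h and 30.5 ± 1.93 after 48 h, and the APOA4-KO sums were 15.3 ± 0.32, 33.0 ± 0.72 and 37.8 ± 1.12. EGLN3 made up 8.94% ± 0.93 of that sum in HepG2 before hypoxia, 28.5% ± 1.07 after 24 h and 20.7% ± 1.48 after 48 h. In APOA4-KO, its share was 11.3% ± 0.74, 28.0% ± 0.31 and 49.0% ± 0.98, which at 48 h was close to the share of the other prolyl hydroxylases together. The share of EGLN2 fell from 43.7% ± 4.04 to 15.1% ± 3.66 in HepG2 and from 38.8% ± 2.32 to 9.65% ± 0.34 in APOA4-KO, without its read-through counts. Among the alpha subunits, EPAS1 exceeded HIF1A by 2.61 ± 0.01 times in HepG2 at 0 h, 3.52 ± 0.07 times at 24 h and 3.11 ± 0.10 times at 48 h, and in APOA4-KO by 2.24 ± 0.19, 2.78 ± 0.06 and 4.15 ± 0.03 times. The FPKM of the 3 alpha subunits summed was 4.70 ± 0.11 times that of the 3 prolyl hydroxylases in HepG2 at 0 h and 2.92 ± 0.14 times at 48 h, and 3.58 ± 0.05 and 3.05 ± 0.11 times in APOA4-KO. These ratios are given as a description, with no test.

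**Figure D5:**
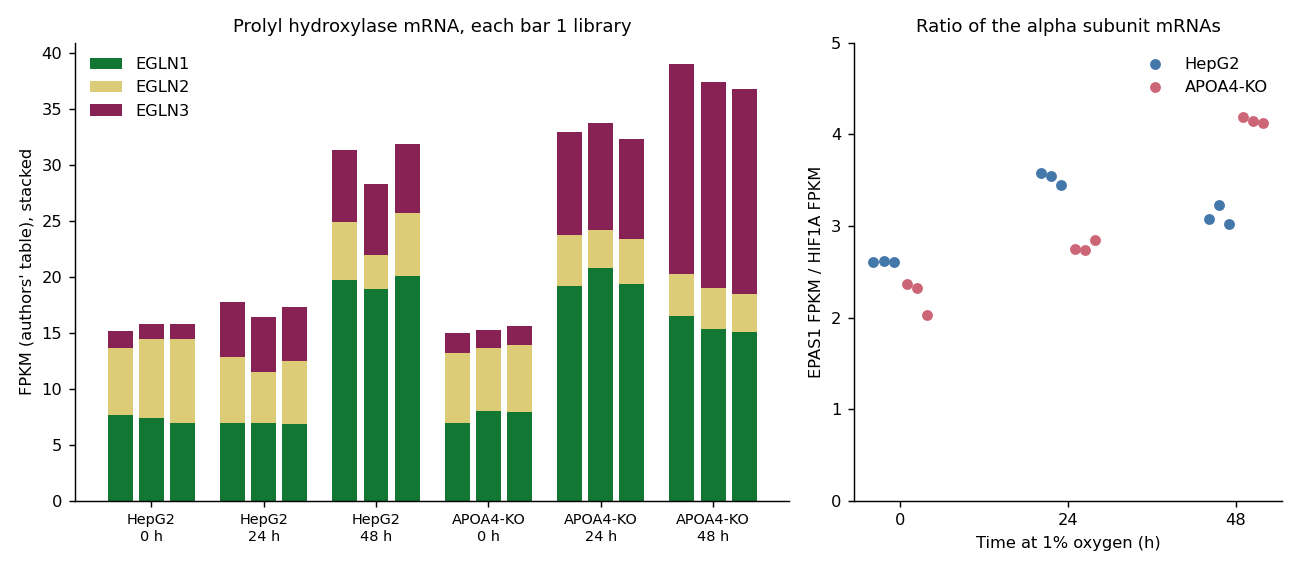
On the left, FPKM of EGLN1, EGLN2 and EGLN3 stacked on a vertical axis from 0 with 1 bar per library; on the right, the ratio of EPAS1 to HIF1A FPKM (vertical axis, no unit) in each library of HepG2 (blue) and APOA4-KO (red) by time at 1% oxygen. The EGLN sum was already at 33.0 FPKM at 24 h in APOA4-KO but at 17.2 FPKM in HepG2, and the EPAS1 to HIF1A ratio reached 4.15 in APOA4-KO at 48 h.

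Among 4 genes that work with VHL in its ligase, 2 fell in APOA4-KO at 48 h, where 25.8% of all tested genes were lower, and 2 rose in HepG2, where 13.2% were higher. Of ELOB and ELOC, which link VHL to the scaffold, ELOB was at -0.42 ± 0.09 in APOA4-KO at 48 h against 0 h (adjusted p = 0.000217) and ELOC at -0.10 ± 0.09 (adjusted p = 0.394). The scaffold CUL2 was at 0.17 ± 0.09 (adjusted p = 0.102) and the RING subunit RBX1 at -0.21 ± 0.08 (adjusted p = 0.0309). In HepG2 at 48 h, CUL2 rose by 0.34 ± 0.09 (adjusted p = 0.00333) and RBX1 by 0.37 ± 0.08 (adjusted p = 0.000780), and ELOB and ELOC did not pass.

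Of 5 tested coactivators and CITED genes, 4 rose in APOA4-KO at 48 h and 1 rose and 1 fell in HepG2, beside 24% of all tested genes higher in APOA4-KO and 13.2% higher and 14.8% lower in HepG2. CREBBP and EP300, the acetyltransferases that HIF1AN keeps from the alpha subunits, rose in APOA4-KO by 0.61 ± 0.03 (adjusted p = 2.17e-14) and 0.48 ± 0.03 (adjusted p = 4.52e-12). CITED2, which competes with HIF1A for them, rose by 1.60 ± 0.05 (adjusted p = 7.65e-19). In HepG2 its mean went from 51.4 CPM at 0 h to 101 CPM at 48 h. The HepG2 means of CREBBP went from 91.2 to 87.7 CPM and those of EP300 from 85.8 to 84.1 CPM. CITED4, a relative, was at -1.36 ± 0.43 in HepG2 at 48 h (adjusted p = 0.0320). Of 17 genes that modify or stabilise HIF alpha subunits, 6 rose and 7 fell in APOA4-KO at 48 h (24% and 25.8% of all tested genes) and 4 rose and 4 fell in HepG2 (13.2% and 14.8%). Among them the ubiquitin ligase gene SIAH1, which targets prolyl hydroxylases, rose by 0.94 ± 0.09 (adjusted p = 1.48e-09) and WSB1, known for binding VHL, by 1.23 ± 0.04 (adjusted p = 5.30e-19) in APOA4-KO. UCHL1, a deubiquitinase gene, was at -2.37 ± 0.53 (adjusted p = 0.000556) and MCM7, a replication helicase subunit that binds HIF alpha, at -0.96 ± 0.03 (adjusted p = 4.25e-20). UCHL1 was scarce in this line, with means of 2.28 CPM at 0 h and 0.44 CPM at 48 h. In HepG2 over the same times, the mean of WSB1 went from 28.6 to 57.3 CPM and that of UCHL1 from 0.77 to 0.24 CPM. SIAH1 went there from 11.1 to 12.1 CPM and MCM7 from 214 to 235 CPM.

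Of 9 tested relatives of the HIF subunits in the bHLH-PAS family, 4 rose and 2 fell in APOA4-KO at 48 h (24% and 25.8% of all tested genes), and 2 rose and 2 fell in HepG2 (13.2% and 14.8%). AHR, the aryl hydrocarbon receptor that also pairs with ARNT, rose by 2.05 ± 0.04 in APOA4-KO (adjusted p = 1.21e-23), and its repressor AHRR was at -2.43 ± 0.97 (adjusted p = 0.0404). The value of AHRR rests on very low levels, with means of 0.64 CPM at 0 h and 0.12 CPM at 48 h. NPAS1 and NPAS2, 2 further family members, rose by 1.48 ± 0.16 (adjusted p = 1.86e-08) and 0.90 ± 0.04 (adjusted p = 1.05e-16).

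Known HIF target genes, the readout of the pathway, were measured for 26 genes, a list that does not hold the 10 genes themselves. In HepG2, 24 of the 26 were higher at 24 h with a median log2 fold change of 0.92, and all 26 at 48 h with a median of 1.51. Of all tested genes, 11.5% and 13.2% were higher there. In APOA4-KO all 26 were higher at both times, with medians of 1.58 and 1.62, beside 21.6% and 24% of all tested genes. Over all tested genes the medians of these 4 comparisons lay between -0.07 and -0.01. At 48 h, the largest changes from 0 h were those of ADM, CA9, ANKRD37 and PFKFB3 in APOA4-KO. They were 3.58 ± 0.07, 3.42 ± 0.06, 3.26 ± 0.15 and 3.03 ± 0.05 (adjusted p at most 4.67e-16). CA9 in HepG2 at 24 h rose by a larger factor than these, from a mean of 12.1 CPM at 0 h to 204 CPM. Its mean in APOA4-KO went from 38.4 CPM at 0 h to 304 CPM at 24 h. The 2 genes that did not pass in HepG2 at 24 h were EPO, the gene of erythropoietin, at 0.14 ± 0.10 (adjusted p = 0.339) and DDIT4, a stress-response gene, at 0.04 ± 0.04 (adjusted p = 0.546). Both are named after their values were seen. Before hypoxia, 25 of the 26 were already higher in APOA4-KO than in HepG2 and 1 was lower, with a median log2 difference of 0.44. Of all tested genes, 13% were higher and 17.7% lower at 0 h. The lines differed in the 24 h change of 23 of the 26 genes, 19 of them with the larger change in APOA4-KO, and at 48 h of 23, 18 of them with the larger change in APOA4-KO. Over all tested genes, the change was larger in APOA4-KO for 17% and smaller for 15.6% at 24 h, and larger for 18.7% and smaller for 17.9% at 48 h.

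Across the 18 libraries, genes whose log2 CPM followed EGLN1 closely included GYS1 (Pearson's r = 0.987) and PLEKHA2 (0.984), and those closest to EGLN3 were TM4SF1 (0.989), SLC2A14 (0.987) and TNS1 (0.986). For EPAS1 they were DENND5A (0.983), EIF3D (0.976) and ZFP36L1 (0.974), and for HIF1A they were PSME4 (0.971), ELF1 (0.961) and SCARB2 (0.946). The closest genes were WIPF2 (0.967) for ARNT, PBX3 (0.914) for ARNT2, TRIP10 (0.924) for HIF3A, PCYOX1 (0.910) for VHL, ENO3 (0.935) for HIF1AN and MXRA8 (0.857) for EGLN2. The likeness was lowest for EGLN2, whose counts vary with the read-through gene. The libraries of a group share line, time and treatment, so these values describe 6 groups more than 18 independent points.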

How the data were processed

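Poly(A) RNA of 18 libraries was sequenced as paired reads of 150 bases. The study's methods name a NEBNext Ultra RNA library kit and do not state whether the preparation kept the strand. The authors trimmed reads with fastp 0.23.1, aligned them with HISAT2 2.1.0 to GRCh38.p13 with Ensembl release 109 and, by the study's methods, assigned them to genes with featureCounts (subread 2.0.2). The submitters' processing notes name StringTie and not featureCounts, so which tool made the count table is not settled, and the whole numbers may be estimates from assembled transcripts. The strand setting and the treatment of reads with several alignments are not given in the sources used here. The deposited counts are whole numbers per gene without normalization. The deposited FPKM values are the authors' counts per gene length and library total, for 33601 of the genes.

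The tests used edgeR 4.0.16 under R 4.3.3 (TMM, filterByExpr on the 6 groups, robust quasi-likelihood fit with a coefficient for each group over all 18 libraries, Benjamini-Hochberg adjustment over 19743 genes in each of 11 comparisons). The quasi-likelihood test returns no standard error. Each SE given here is the absolute log2 fold change divided by the square root of the test's F statistic. The study used DESeq2, which was an alternative here (1.42.0), as were other scalings, filters of no minimum and of 100 counts in 3 libraries, a replicate block, fits of only the groups compared, limma 3.58.1 on log2(FPKM + 1) and log2(FPKM + 0.1), each library left out in turn, and the sum of EGLN2 and RAB4B-EGLN2. Exon overlaps came from GENCODE on GRCh38. The genes and gene lists were chosen with earlier results of these data known. Named list genes are all VHL ligase partners and, from each other list, the 4 with the largest change among those past an adjusted p of 0.05 at 48 h against 0 h in either line, and the likest genes are the 3 with the highest Pearson's r among genes with a mean of at least 1 CPM, of which 3 or the first are printed, apart from a gene that is not reported here.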

Additional observations from a re-analysis of the deposited data

Results flagged for a closer look

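The following changes from 0 h differed between the lines past an adjusted p of 0.05 in edgeR's quasi-likelihood test of the difference itself, given as the log2 change of APOA4-KO minus that of HepG2. At 24 h these were HIF1A at 1.00 ± 0.06 (SE), EPAS1 at 0.89 ± 0.03, ARNT at 0.46 ± 0.06, EGLN1 at 1.42 ± 0.07, EGLN3 at 0.55 ± 0.07 and VHL at 0.21 ± 0.07. At 48 h these were HIF1A at 0.47 ± 0.06, EPAS1 at 1.12 ± 0.03, HIF3A at 2.54 ± 0.77, ARNT at 0.74 ± 0.06, EGLN1 at -0.21 ± 0.07 and EGLN3 at 1.40 ± 0.07. EGLN2 alone passed at neither time. Its sum with RAB4B-EGLN2 passed at both, at -0.31 ± 0.08 at 24 h and -0.54 ± 0.08 at 48 h. Of the genes that passed at both times, EGLN1 is the one whose difference changed sign, and its 48 h call was lost in 6 of 28 alternatives. The signs also differed for HIF3A, at -0.79 at 24 h (adjusted p = 0.515), and for VHL, at -0.16 at 48 h (adjusted p = 0.0846), where these did not pass.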

How the results depend on the processing

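Over the 10 genes and 11 comparisons, 72 member changes had an adjusted p under 0.05 (edgeR). The shares of all tested genes are given above for each comparison. Many comparisons share libraries, so these changes are not independent of each other. The 72 changes kept their sign in all 2012 alternatives computed for them and stayed under 0.05 in 1916. No call for EPAS1, EGLN3 or HIF3A was lost where these genes were tested; the stricter filter, at least 100 counts in 3 libraries, removed HIF3A. The calls lost most often were those of EGLN2 and HIF1AN, and the cause was not tested. Replicate numbers did not pair the samples: libraries with the same number had correlations of -0.144 to 0.0511, and 0 of 45 pairs were above 0.1. With a replicate block, the change of EGLN1 in APOA4-KO at 24 h was 1.40, and 0 member changes moved across 0.05. Low counts limit HIF3A, whose values on the log2(FPKM + 1) scale lie close to 0.

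Scaling to library size alone moved the median log2 fold change of all tested genes from -0.07 to -0.23 (APOA4-KO 48 h against 0 h), -0.05 to -0.18 (APOA4-KO 48 h against 24 h), -0.04 to -0.19 (between the lines at 48 h) and -0.04 to -0.21 (line difference in the 48 h change). The share of higher genes among those called moved from 48.1% to 34.4%, 52.7% to 35.9%, 46.4% to 34.7% and 51.1% to 32.2% in the same order, from 38.4% to 26.1% in HepG2 at 24 h, and from 61.2% to 76.5% in HepG2 from 24 h to 48 h. Under that scaling the line difference in the 48 h change passed for VHL (-0.33, adjusted p = 0.00036) and HIF1AN (-0.28, adjusted p = 3.67e-05).

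The signs that turned were all of changes that had not passed. EGLN1 in HepG2 at 24 h was 0.0161 with DESeq2, 0.0161 with its size factors, 0.0348 with only the groups compared and 0.0367 with the stricter filter. HIF1AN in HepG2 from 24 h to 48 h was -0.0164, -0.0167, -0.0149 and -0.0408 in that order, and its difference between the lines at 0 h was -0.000509 with no filter. EGLN2 in APOA4-KO from 24 h to 48 h was -0.11 when summed with RAB4B-EGLN2, -0.13 by library size, -0.11 and -0.0936 with limma on log2(FPKM + 0.1) and log2(FPKM + 1), and -0.0109 with only the groups compared. Its line difference in the 48 h change was -0.54 when summed (adjusted p = 2.76e-06), -0.15 by library size, and -0.11 and -0.0868 with limma; in HepG2 from 24 h to 48 h the sum gave 0.13. HIF3A in APOA4-KO at 24 h was -0.00621 and -9.16e-05 with limma. VHL in HepG2 at 24 h was -0.0567 by library size, and -0.0556 and -0.0509 with limma.

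With single libraries left out, ARNT2 ranged from -0.26 to 0.14 (APOA4-KO at 24 h), -0.40 to 0.00194 (APOA4-KO at 48 h) and -0.32 to 0.00859 (HepG2 from 24 h to 48 h). EGLN1 ranged from -0.0130 to 0.0828 between the lines at 0 h and from -0.0539 to 0.0220 in HepG2 at 24 h. EGLN2 ranged from -0.10 to 0.10 in APOA4-KO from 24 h to 48 h and from -0.21 to 0.17 for the line difference in the 48 h change. HIF1AN ranged from -0.0195 to 0.0319 between the lines at 0 h, HIF3A from -0.28 to 0.59 in APOA4-KO at 24 h and from -0.44 to 0.10 in HepG2 at 48 h, and VHL from -0.0146 to 0.046 in HepG2 at 24 h.

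The count of members past 0.05 in HepG2 at 48 h was 3 with no filter and 3 to 5 with libraries left out. For members also past a log2 fold change of 1, APOA4-KO at 48 h had 2 with limma on log2(FPKM + 1). From 24 h to 48 h it had 0 and 0 with the limma fits and 1 with the stricter filter. Between the lines there were 1 and 1 with the limma fits at 24 h, 1 with limma on log2(FPKM + 1) at 48 h, and 0 to 1 at 0 h with libraries left out. The line difference in the 24 h change gave 1 with DESeq2, 1 with its size factors, 1 with limma on log2(FPKM + 1), 1 with the stricter filter and 1 to 2 with libraries left out. That in the 48 h change gave 1 and 1 with the limma fits.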
